A study of Caenorhabditis elegans with 6 samples.

Results

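The 10 genes described here code for the proteins that start an autophagosome in *Caenorhabditis elegans*. They were chosen by gene name, with earlier results of these data known. *atg-9*, *atg-2*, *atg-18* and *epg-6* were taken for the membrane and lipid step, and *unc-51*, *atg-13* and *epg-9* for the UNC-51 kinase complex. *bec-1*, *vps-34* and *epg-8* were taken for the phosphatidylinositol 3-kinase complex. All 10 were found among the 46904 genes of the table. Ribosome-bound RNA was measured in 6 libraries, 3 after a 6 h stay on food with ethanol (EtOH, the vehicle) and 3 after 6 h on food with 4.5 µM antimycin A, which blocks mitochondrial complex III. Each of 3 independent experiments gave 1 library of each kind, and the study asks about ATG-9 and autophagy at synapses in learning under stress.

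Both groups were young adults of strain CLP1481, grown at 20 °C. All animals carried the same array, twnEx675, which holds Ptbh-1::rpl-22::3xHA and the marker Pgcy-8::gfp, so the vehicle animals carried the transgene as well and no library without it was analysed here. RPL-22, a ribosomal protein with 3 HA tags, is made from the *tbh-1* promoter (the gene codes for tyramine beta-hydroxylase), and an anti-HA antibody pulled down the tagged ribosomes. The labels name the material as *tbh-1* expressing neurons; in *C. elegans* this gene is known to be active in the octopamine neurons RIC and in the gonadal sheath. *tbh-1* itself read 1455 to 2683 TPM (a share of each library's transcripts, scaled for gene length and to a fixed sum). The 4 gonadal sheath markers summed to 2794 to 6545 TPM over the 6 libraries, and the 13 pan-neuronal markers to 299.9 to 855 TPM. Of the latter, *unc-10*, *unc-31* and *rgef-1* were below 1 TPM in all 6 libraries. The 9 intestine markers summed to 8178 to 9836 TPM in EtOH and 2058 to 4909 TPM in antimycin A, with 5 of the 9 lower and 2 higher. In such a bulk sample a change in the number of cells of a type and a change in RNA per cell cannot be told apart. No read counts come with TPM, so the depth behind each value is unknown; 10267 genes read 1 TPM or more in EtOH replicate 2 and 11608 in antimycin A replicate 1.

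Autophagy encloses cytoplasm in a double membrane that then fuses with lysosomes. The kinase UNC-51 (Atg1/ULK) with ATG-13 and EPG-9, the worm ATG101, starts the process. BEC-1 (Beclin), VPS-34 and EPG-8, the worm ATG14, then make phosphatidylinositol 3-phosphate (PI3P) on the growing membrane, where the WIPI proteins ATG-18 and EPG-6 bind it. ATG-9 is the multispanning membrane protein of the core machinery; it scrambles lipids between the leaflets and arrives on vesicles, and ATG-2 carries lipids to the membrane. In neurons ATG-9 vesicles are transported to synapses and cycle there with synaptic vesicles.

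Of the 10 genes, 7 rose with antimycin A and 0 fell (limma on log2(TPM + 1), adjusted p below 0.05, Benjamini-Hochberg over all 11099 genes tested). At an unadjusted p below 0.05, 0 were lower, and the same held with the replicate number as a block. All of the UNC-51 complex rose, as did *bec-1* in the kinase complex and *atg-2*, *atg-18* and *epg-6* at the membrane step; *epg-9* and *bec-1* had the largest changes of the 10, with antimycin A means 5.40 and 5.07 times the EtOH means. The genes not called were *atg-9*, *vps-34* and *epg-8*. Of all genes tested, 14.2% rose and 6.47% fell, so 68.7% of the calls were higher; that share was 54.1% with median-of-ratios scaling and 50.4% with quantile normalization. The median log2 fold change was 1.44 over the 10 members and 0.21 over all tested genes. All 10 were higher with antimycin A in each of the 3 same-numbered pairs, as were 43.2% of tested genes. In 7 of the 10 every antimycin A library was above every EtOH library, which held for 23.1% of tested genes. With the replicate block 9 of the 10 rose, *atg-9* and *epg-8* being the additions, and *vps-34* did not pass; in that fit 29.6% of all genes rose and 13% fell. These calls depended on single libraries: 4 members rose without EtOH replicate 2 or without antimycin A replicate 2, 5 without EtOH replicate 3 or antimycin A replicate 1, and 9 without EtOH replicate 1. The share of all tested genes that rose moved as well, to 19.2%, 9.07% and 9.86% when EtOH replicate 1, 2 or 3 was left out, and to 9.02% and 7.30% when antimycin A replicate 1 or 2 was.

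**Figure D1:**
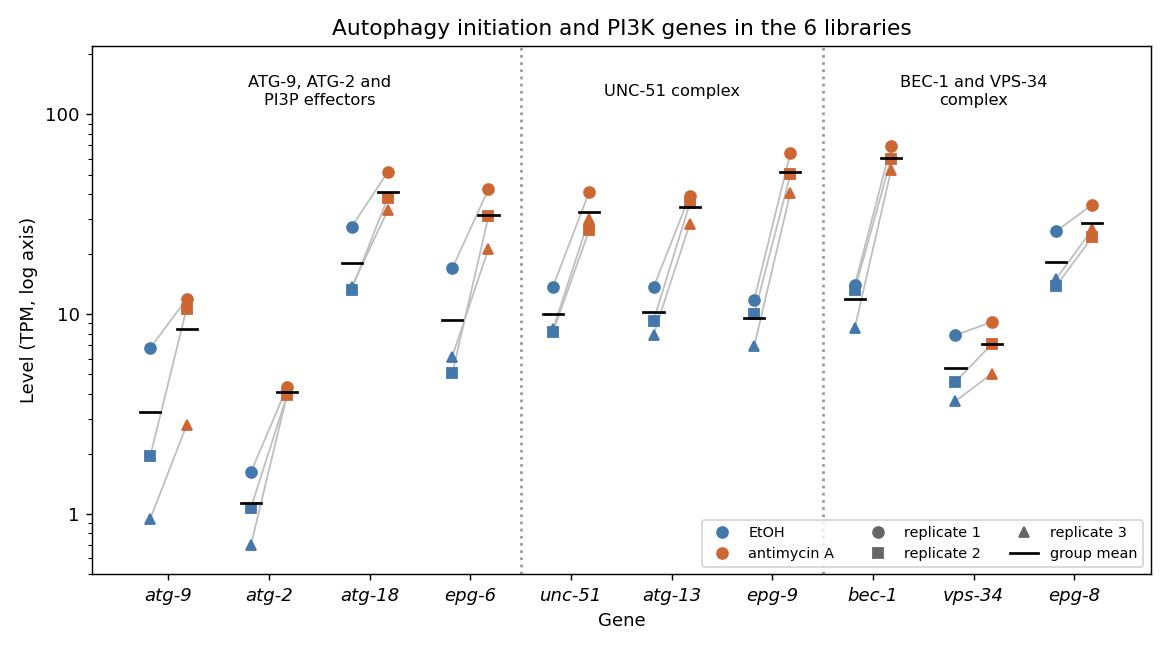
Level of each gene in TPM (log axis) in the 3 EtOH libraries (blue) and the 3 antimycin A libraries (orange); marker shapes give the replicate number, grey lines join libraries of the same number and black bars are group means. Every line rises, steeply for *epg-9* and *bec-1* and little for *vps-34*, and the *atg-9* points spread widest within a group.

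The membrane step begins with *atg-9* (WBGene00020706, WBcel235 chromosome V, 349374 to 359016, plus strand; no other annotated gene overlaps it). It read 6.78, 1.96 and 0.948 TPM in EtOH replicates 1 to 3 and 11.9, 10.7 and 2.78 TPM in the antimycin A libraries of the same numbers. The groups overlapped, because antimycin A replicate 3 lay below EtOH replicate 1. Within the same-numbered pairs the antimycin A library was 1.76, 5.44 and 2.93 times the EtOH library. The group means were 3.23 TPM ± 3.11 and 8.45 TPM ± 4.95 (SD, n = 3 each). The log2 fold change of 1.22 ± 0.60 SE did not pass in limma (adjusted p = 0.208) and passed with the replicate block (1.22 ± 0.26 SE, adjusted p = 2.27e-04). It also passed without EtOH replicate 1 (1.79, adjusted p = 0.0162). In the authors' deposited table over all libraries, *atg-9* has q = 0.0319, where 6.17% of the listed genes have a q below 0.05. The authors' deposited tables of single pairs list it at q = 1 in each of the 3, where 0.294%, 0.064% and 0.0554% of genes have a q below 0.05. The shares in these deposited tables are of all 46904 listed genes, and 6.17% stands for 2896 genes. In EtOH replicate 1, 31575 of the listed genes read 0 TPM. These shares therefore cannot be compared with those of the 11099 tested genes.

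The spread of *atg-9* between replicates was wide. Its highest EtOH library was 7.15 times its lowest, a ratio larger than that of 98.0% of the 10936 tested genes above 0 in all EtOH libraries, whose median was 1.81. In antimycin A the highest library was 4.28 times the lowest, larger than for 95.1% of genes. After median-of-ratios scaling, which sets the libraries to a common median gene, these ratios were 4.27 and 2.898. For the other 9 members the ratio in EtOH ran from 1.64 for *bec-1* to 3.35 for *epg-6*. In TPM, the library of experiment 1 was highest in *atg-9* in both groups and that of experiment 3 lowest; after median-of-ratios scaling antimycin A replicate 2 was highest, at 9.50 against 8.37 for replicate 1. The summed pan-neuronal markers had that order too, at 525, 367 and 299.9 TPM with EtOH and 855, 805 and 554 TPM with antimycin A, and *snb-1*, the synaptobrevin gene, took 260.3, 149.6 and 88.3 TPM and 457, 382 and 194 TPM of these sums. This order was not particular to neurons. The summed germline markers (295, 102 and 82.7 TPM, then 222, 121 and 102 TPM), the summed body wall muscle markers (262, 179 and 121 TPM, then 275, 222 and 140.3 TPM) and the size factors of the libraries (1.24, 0.808 and 0.741, then 1.42, 1.12 and 0.849) had it too. Some pan-neuronal markers did not, such as *unc-64*, the syntaxin gene, at 56.9, 52.1 and 64.9 TPM and then 72.6, 71.7 and 74.6 TPM. Nor did the summed gonadal sheath, eggshell and hypodermis markers or *tbh-1*. The sheath sums were 2794, 4358 and 3981 TPM with EtOH and 4936, 6545 and 4890 TPM with antimycin A. *tbh-1* read 1592, 1722 and 1684 TPM and then 2156, 2683 and 1455 TPM. The part of these markers and factors in the *atg-9* values was not tested.

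*atg-2* (WBGene00019748, chromosome X, 6809104 to 6817266), for the lipid transfer protein, had the lowest mean of the 10 in both groups. It read 1.63, 1.08 and 0.702 TPM with EtOH and 4.32, 3.95 and 3.98 TPM with antimycin A, without overlap. It rose by 1.27 ± 0.30 SE on the log2 scale (adjusted p = 0.0139). The 3 antimycin A values lay close together, with a highest to lowest ratio of 1.096; 2.16% of the 10942 tested genes above 0 in those libraries had a smaller one. Neither *atg-2* nor *atg-9* reached 1 TPM in EtOH replicate 3, whereas the other 8 members did so in all 6 libraries. On the log2(TPM + 1) scale the changes of such low genes are understated. Without the added 1, the mean log2 ratio over the pairs was 1.93 ± 0.55 for *atg-2* and 1.60 ± 0.82 for *atg-9* (SD, n = 3 pairs). The *atg-2* call was lost without EtOH replicate 2 (adjusted p = 0.0695), EtOH replicate 3 (adjusted p = 0.0809) or antimycin A replicate 2 (adjusted p = 0.0514).

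The PI3P-binding WIPI genes rose from higher levels. *atg-18* (WBGene00018294, chromosome V, 8629223 to 8631325) read 27.4, 13.3 and 13.7 TPM with EtOH and 51.6, 38.4 and 33.2 TPM with antimycin A. It rose by 1.19 ± 0.33 SE (adjusted p = 0.0265), with all antimycin A libraries above the EtOH libraries. *epg-6* (WBGene00012641, chromosome III, 10596615 to 10600184), for the WIPI protein that binds ATG-2, read 16.96, 5.05 and 6.14 TPM with EtOH and 42.3, 30.9 and 21.3 TPM with antimycin A. It rose by 1.77 ± 0.44 SE (adjusted p = 0.0161), also without overlap. Its ratio was 6.11 in pair 2 against 2.495 and 3.47 in pairs 1 and 3. Leaving out EtOH replicate 2, or the first or second antimycin A library, ended both calls, and leaving out EtOH replicate 3 ended that of *atg-18* (adjusted p from 0.0538 to 0.125 over these fits).

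The UNC-51 complex rose as a whole. *unc-51* (WBGene00006786, chromosome V, 19995986 to 20004485), the kinase gene that is also required for axon growth in worms, read 13.7, 8.12 and 8.40 TPM with EtOH and 40.9, 26.3 and 29.9 TPM with antimycin A. The pairs gave ratios of 2.98, 3.24 and 3.56, and limma a log2 fold change of 1.60 ± 0.30 SE (adjusted p = 0.00424). *atg-13* (WBGene00017045, chromosome III, 8155928 to 8158245), for the regulatory subunit, was close to it in level at 13.6, 9.29 and 7.89 TPM with EtOH and 39.2, 35.8 and 28.3 TPM with antimycin A. It rose by 1.67 ± 0.29 SE (adjusted p = 0.00247). *atg-13* shares 62 bases with *D2007.1* on the other strand, which read 222 to 318 TPM in EtOH and 345 to 493 TPM in antimycin A. The strand setting of the counting is not given, so reads in the shared bases could belong to either gene.

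*epg-9* (WBGene00022078, chromosome IV, 2601141 to 2607571), which codes for the partner that stabilises ATG-13, read 11.8, 9.998 and 6.91 TPM with EtOH and 64.2, 50.1 and 40.6 TPM with antimycin A. Every antimycin A library was far above every EtOH library. It rose by 2.32 ± 0.29 SE (adjusted p = 3.69e-04), with ratios of 5.45, 5.01 and 5.88 in the 3 pairs. In EtOH the 3 genes of the complex stood at 10.1 TPM ± 3.15 for *unc-51*, 10.3 TPM ± 2.99 for *atg-13* and 9.56 TPM ± 2.47 for *epg-9*, which did not differ beyond their spread. In antimycin A *epg-9*, at 51.6 TPM ± 11.9, was above *unc-51*, at 32.4 TPM ± 7.57, and *atg-13*, at 34.5 TPM ± 5.56, in each of the 3 libraries. The *unc-51*, *atg-13* and *epg-9* calls held in each of the 6 fits that left out a single library.

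In the kinase complex the members moved apart. *bec-1* (WBGene00000247, chromosome IV, 5661141 to 5664425), the Beclin gene, read 14.0, 13.3 and 8.55 TPM with EtOH and 69.3, 59.8 and 52.6 TPM with antimycin A, with no overlap. It rose by 2.27 ± 0.27 SE (adjusted p = 2.49e-04). *vps-34* (WBGene00006932, chromosome I, 6028486 to 6033457), for the catalytic subunit, read 7.85, 4.59 and 3.68 TPM with EtOH and 9.14, 7.07 and 5.03 TPM with antimycin A. Its groups overlapped, and the log2 fold change of 0.36 ± 0.37 SE did not pass (adjusted p = 0.612, blocked 0.207). *epg-8* (WBGene00013695, chromosome I, 9931870 to 9934290), for the subunit that directs the complex to autophagy, read 26.02, 13.8 and 15.03 TPM with EtOH and 35.4, 24.4 and 26.5 TPM with antimycin A. It overlapped as well and did not pass (0.66 ± 0.31 SE, adjusted p = 0.177), but did with the block (adjusted p = 0.00320) and without EtOH replicate 1 (adjusted p = 0.0334). *bec-1* and *vps-34* each overlap a non-coding gene on the other strand, by 223 and 177 bases, listed at 0 in all 6 libraries. *epg-8* shares 13 bases with *Y106G6A.4*, which read at most 0.925 TPM. The log2 fold changes of *epg-8* and *vps-34* were 0.39 and 0.12 with median-of-ratios scaling, and quantile normalization gave 0.31 and 0.05.

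**Figure D2:**
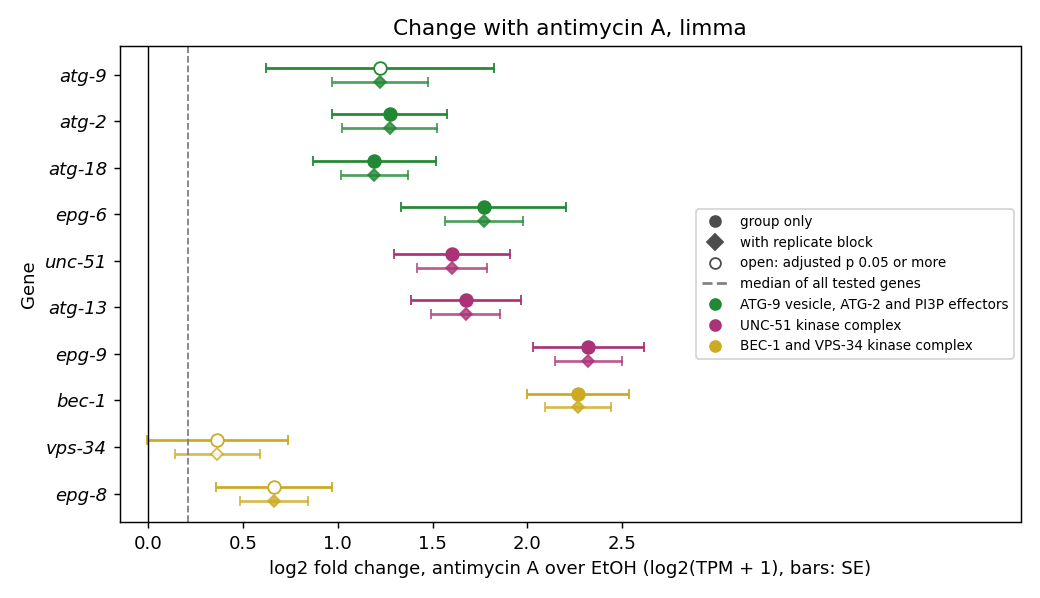
Log2 fold change of each gene (antimycin A over EtOH, on log2(TPM + 1)) with its SE, from limma with group as the only term (circles) and with the replicate block (diamonds); filled symbols have an adjusted p below 0.05, and the dashed line is the median of all tested genes, 0.21. *epg-9* and *bec-1* lie above 2, *vps-34* is open in both fits, and *atg-9* and *epg-8* are open without the block and filled with it.

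The order of the levels differed between the groups. In EtOH *epg-8* (18.3 TPM ± 6.72) and *atg-18* (18.1 TPM ± 8.02) were highest, followed by *bec-1*, *atg-13*, *unc-51*, *epg-9* and *epg-6*, all with means between 9.38 and 12.0 TPM. Then came *vps-34*, *atg-9* and *atg-2*, and every neighbour in that order overlapped the next. In antimycin A the order was *bec-1* (60.6 TPM ± 8.40), *epg-9*, *atg-18*, *atg-13*, *unc-51*, *epg-6*, *epg-8*, *atg-9*, *vps-34* and *atg-2* (4.08 TPM ± 0.210). There *epg-8* and *atg-9* did not overlap, nor did *vps-34* and *atg-2*, while the other neighbours did. The *atg-9* mean was below those of *unc-51* and *bec-1* in both groups.

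Ratios between partners are free of the scaling of a library, and 12 were computed, covering all pairs within each of the 3 sets. The numerator of each was the gene with the larger log2 fold change in these data. The upward direction of the ratios follows from this choice and is not a result. The ratio of *bec-1* to *vps-34* was 1.79, 2.89 and 2.33 in EtOH and 7.58, 8.46 and 10.4 in antimycin A. It thus went from 2.34 ± 0.554 to 8.83 ± 1.47 (SD, n = 3 each), without overlap. *bec-1* was below *epg-8* in every EtOH library, at ratios of 0.539, 0.960 and 0.569, and above it in every antimycin A library, at 1.96, 2.46 and 1.98. The ratio of *epg-8* to *vps-34* overlapped between the groups (3.47 ± 0.555 and 4.196 ± 0.958) and was higher in 3 of 3 pairs, by 0.26 ± 0.09 on the log2 scale (SD, n = 3 pairs).

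Within the UNC-51 complex *atg-13* stayed near *unc-51*, with ratios of 0.994, 1.14 and 0.940 in EtOH and 0.959, 1.36 and 0.947 in antimycin A. *epg-9* relative to *unc-51* went from 0.859, 1.23 and 0.822 to 1.57, 1.90 and 1.36, without overlap. At the membrane step *epg-6* relative to *atg-18* went from 0.483 ± 0.123 to 0.755 ± 0.0991, and *atg-2* relative to *atg-18* from 0.0641 ± 0.0155 to 0.102 ± 0.0180, both without overlap. The 3 ratios that include *atg-9* overlapped between the groups; of these, *epg-6* to *atg-9* was higher in 3 of 3 pairs (0.30 ± 0.18 on the log2 scale). In all, 6 of the 12 ratios did not overlap, each with an exact two-sided permutation p of 0.1 (0.2 after Benjamini-Hochberg adjustment over the 12). With 3 libraries against 3, 0.1 is the smallest p the test can give, so no ratio could reach 0.05. An exact permutation within the pairs cannot go below 0.25, which 8 of the 12 ratios reached, each moving in 1 direction in 3 of 3 pairs. That this direction was upward follows from the choice of numerator.

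**Figure D3:**
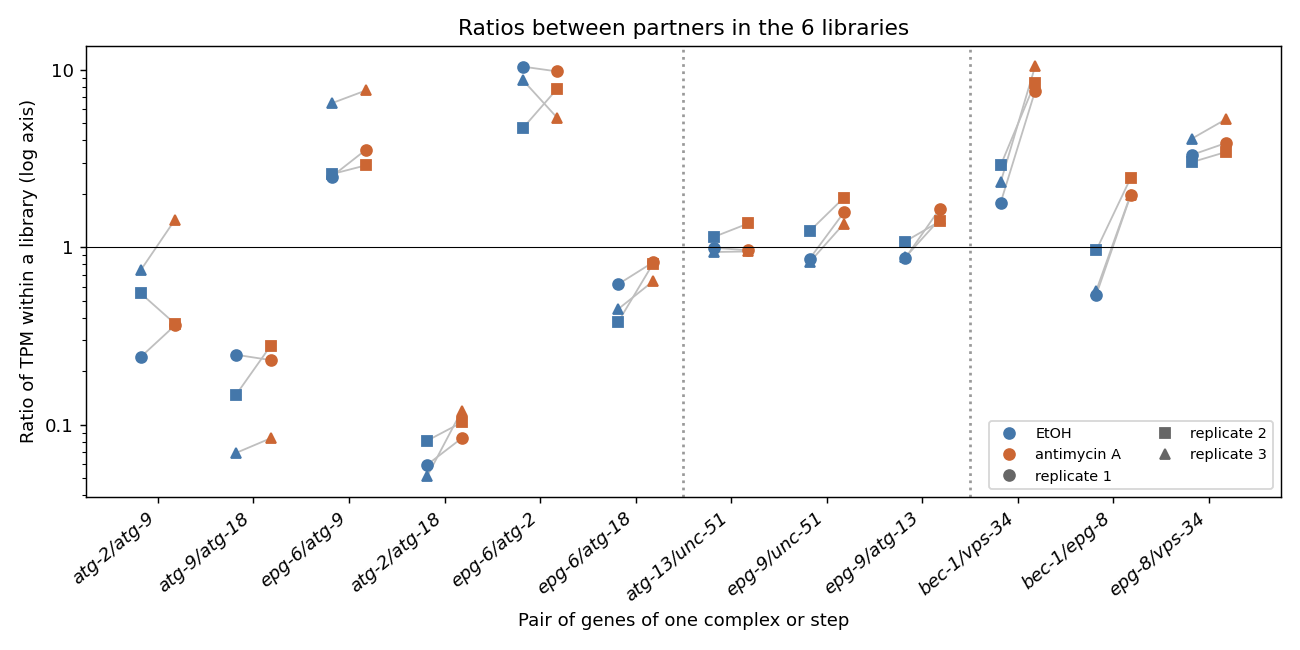
Ratio of TPM between partners of the same set (log axis) in each EtOH (blue) and antimycin A (orange) library, with same-numbered libraries joined. The *bec-1* to *vps-34* ratio rises from 1.79 to 2.89 in EtOH to 7.58 to 10.4 in antimycin A, and *bec-1* to *epg-8* crosses 1, while *atg-13* to *unc-51* stays close to 1 in both groups.

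The members were also set against markers of the tissues in the pull-down. Per 1000 TPM of summed pan-neuronal markers, *bec-1* read 26.7, 36.2 and 28.5 in EtOH and 81.1, 74.3 and 94.8 in antimycin A. *epg-9* read 22.5, 27.3 and 23.0 and then 75.1, 62.2 and 73.3 on the same scale, and *atg-13* 25.97, 25.3 and 26.3 and then 45.8, 44.5 and 51.1. In none of these 3 genes did the groups overlap. *atg-9* read 12.9, 5.34 and 3.16 in EtOH and 13.9, 13.2 and 5.02 in antimycin A, with overlap. *vps-34* was lower on this scale in 3 of 3 pairs, at 14.96, 12.5 and 12.3 and then 10.7, 8.79 and 9.08 without overlap, and *epg-8* was lower in 3 of 3 pairs with overlap. Of the 9 pan-neuronal markers tested, 1 rose, 0 fell and 8 were not called; the one that rose was *sbt-1*, the 7B2 chaperone of neuropeptide processing (log2 fold change 1.16 ± 0.18 SE, adjusted p = 0.00143). At an unadjusted p below 0.05, 4 were higher, and with the block 4 rose (*snb-1*, *egl-3*, *egl-21* and *sbt-1*). The sum itself went from 397 TPM ± 116 with EtOH to 738 TPM ± 161 with antimycin A, so a lower value on this scale is relative to a higher sum; the TPM of *vps-34* and *epg-8* were higher in every pair.

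Per 1000 TPM of *tbh-1*, the gene behind the promoter, 9 of the 10 members were higher in all 3 pairs and 6 did not overlap. *vps-34* was higher in 1 of 3 pairs on that scale. *bec-1* read 8.81, 7.71 and 5.08 per 1000 TPM of *tbh-1* in EtOH and 32.2, 22.3 and 36.1 in antimycin A. Against the summed gonadal sheath markers, 7 were higher in all 3 pairs, and *atg-2*, *atg-13*, *epg-9* and *bec-1* did not overlap. The shares of all tested genes on the marker scales were not computed, so these counts have no background beside them. In TPM, 43.2% of tested genes were higher in all 3 pairs and 23.1% were higher without overlap. Most of that sum was *inx-8*, at 2344 to 5465 TPM over the 6 libraries. Limma called 0 of *tbh-1*, *tdc-1* and *cat-1* (0 at an unadjusted p below 0.05, 0 with the block) and 0 of the 4 sheath markers (2 higher at an unadjusted p below 0.05, 2 with the block). Limma called 0 of 6 germline markers, 0 of 4 eggshell markers, 0 of 5 body wall muscle markers and 0 of 2 pharynx markers (0, 1, 0 and 0 higher at an unadjusted p below 0.05 and 1, 1, 1 and 0 with the block), and of 4 hypodermis markers 2 rose and 1 fell. The eggshell markers summed to 87870 to 113939 TPM in EtOH and 124114 to 148127 TPM in antimycin A. Nearly all of these sums came from *perm-2* (66560 to 82788 and 84249 to 100797 TPM) and *perm-4* (21171 to 31108 and 39810 to 47265 TPM). The other eggshell markers overlapped between the groups, *cbd-1* at 24.95 to 80.7 and 29.8 to 67.1 TPM and *egg-1* at 16.8 to 58.2 and 25.2 to 52.6 TPM. Each of the 3 coelomocyte markers was below 1 TPM in every library. The part of these marker differences in the members' changes was not tested.

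**Figure D4:**
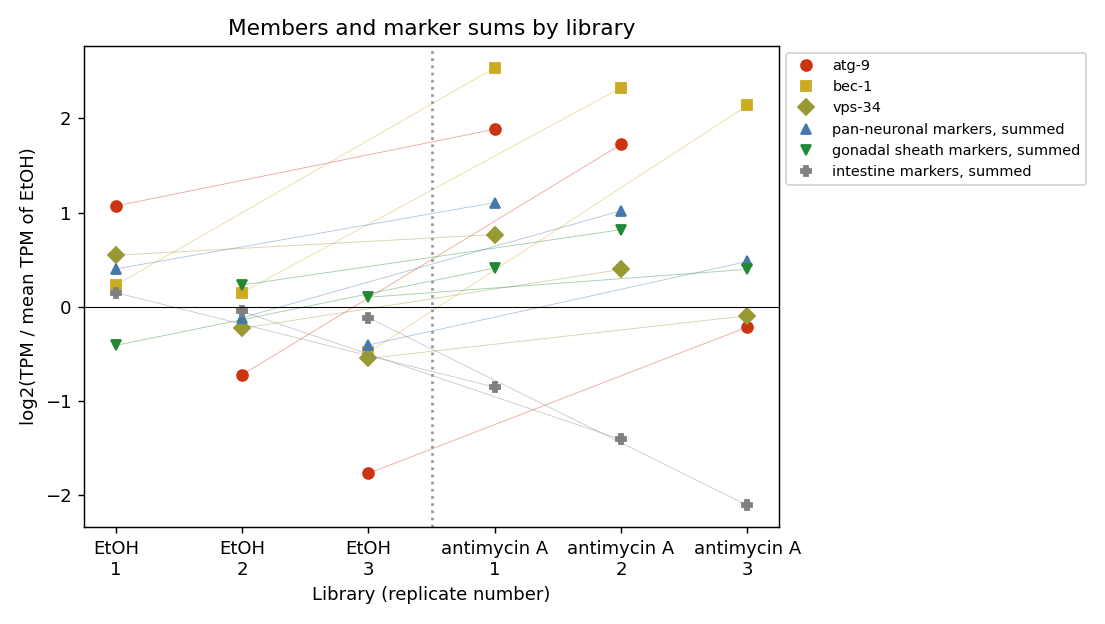
log2 of the level in each library over the EtOH mean, for *atg-9*, *bec-1*, *vps-34* and the summed markers of neurons, gonadal sheath and intestine; thin lines join libraries of the same replicate number. *atg-9* spreads more widely within both groups than the pan-neuronal sum, *bec-1* is higher in every antimycin A library than in every EtOH library, and the intestine sum is lower in antimycin A.

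The 5 tested genes whose values over the 6 libraries were most like those of *atg-9*, by Pearson correlation of log2(TPM + 1), were *Y94H6A.7*, *arl-8*, *mlst-8*, *svh-2* and *cnb-1*, at 0.998 for the first 4 and 0.997 for *cnb-1*. *arl-8*, for a lysosomal small GTPase that is also known in synaptic vesicle transport, read 98.9, 55.8 and 46.0 TPM with EtOH and 135, 119.3 and 65.5 TPM with antimycin A. *mlst-8*, for a subunit of the TOR complexes, read 11.01, 5.10 and 3.83 TPM and 16.4, 14.1 and 6.16 TPM. These are the highest of 11098 correlations over 6 libraries that share their pairing, and are given as a description. The member closest to *atg-9* was *vps-34* (0.962) and the farthest was *bec-1* (0.716).

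The rest of the pathway was taken from 8 lists with 78 genes, of which 76 were in the table and 73 passed the filter. Of these 73, 17 rose, 0 fell and 56 were not called, with a median log2 fold change of 0.50. The share that rose was 23.3%, and 47.9% with the block, against 14.2% and 29.6% of all tested genes. With the replicate block 35 rose, without EtOH replicate 1 30 rose, and 0 fell in either fit or at an unadjusted p below 0.05. *uvrg-1* and *rub-1* were matched to no name in the table, and *piki-1*, *epg-5* and *cla-1* were below the filter. Among phosphoinositide partners of VPS-34, limma called 0 of 6 tested genes (0%, against 14.2% of all genes higher). With the block 1 rose (16.7% against 29.6%). At an unadjusted p below 0.05, 1 was higher, and 1 rose without EtOH replicate 1. Whether so short a list differs from all genes was not tested. *mtm-3*, for a myotubularin phosphatase, read 15.6, 5.61 and 5.54 TPM with EtOH and 23.1, 16.9 and 13.2 TPM with antimycin A (1.03 ± 0.41 SE, adjusted p = 0.117, blocked 1.71e-04). *vps-15*, for the regulatory subunit of VPS-34, read 6.13, 2.31 and 1.94 TPM and 6.28, 5.25 and 3.36 TPM (0.51 ± 0.42 SE, adjusted p = 0.503). *mtm-1*, for another myotubularin, had an adjusted p of 0.598 in limma.

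For the traffic of ATG-9 and synaptic vesicles, limma called 0 of 13 tested genes (0%, against 14.2% of all genes higher). With the block 1 rose (7.69% against 29.6%). At an unadjusted p below 0.05, 1 was higher, and 1 rose without EtOH replicate 1. Whether so short a list differs from all genes was not tested. The list's median was 0.13, but -0.05 with median-of-ratios scaling and -0.14 with quantile normalization; these scalings move the median of all genes from 0.21 to -0.03 and -0.09. The same 7 members were called under both. *unc-57*, for endophilin, read 20.6, 6.71 and 6.99 TPM with EtOH and 29.02, 17.9 and 17.9 TPM with antimycin A (1.00 ± 0.43 SE, adjusted p = 0.139, blocked 1.57e-04). The kinesin gene *unc-104* read 1.90, 0.924 and 0.672 TPM and 1.76, 1.73 and 1.35 TPM, and *rab-3* read 15.2, 10.05 and 5.36 TPM and 20.5, 15.99 and 6.08 TPM; neither passed with or without the block. *cla-1*, for the active zone protein clarinet, which is known in ATG-9 sorting, was below the filter, at 0 to 0.0240 TPM.

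Downstream of the kinases the conjugation genes were called in 2 of 9 cases (22.2%, against 14.2% of all genes), in 5 with the block (55.6% against 29.6%), and in 1 without EtOH replicate 2 or 3 or any antimycin A library. *atg-3*, for the E2-like enzyme of Atg8 lipidation, rose from 17.5 TPM ± 3.23 to 46.2 TPM ± 5.80 (adjusted p = 0.00335). *lgg-3*, the worm Atg12, rose from 45.1 TPM ± 8.46 to 82.2 TPM ± 11.3 (adjusted p = 0.0255); its call was lost in 5 of the 6 fits without a single library (highest adjusted p = 0.141). *atg-4.1*, for a protease that processes Atg8, read 9.10 to 13.8 TPM in EtOH and 16.6 to 24.0 TPM in antimycin A, without overlap, and did not pass (adjusted p = 0.0849, blocked 0.00112). Of the Atg8 homologues and receptors 5 of 7 rose (71.4%, against 14.2% of all genes), and 6 with the block (85.7% against 29.6%). The 3 with the smallest p were *lgg-1*, *sqst-1* and *allo-1*, with log2 fold changes of 2.57, 2.86 and 1.97. That list's median was 2.57.

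*epg-4*, for the worm EI24, rose from 18.1 TPM ± 6.49 to 49.4 TPM ± 12.1 (adjusted p = 0.00927). *epg-3*, for the worm VMP1, a scramblase of the endoplasmic reticulum, read 8.997, 2.27 and 0.742 TPM with EtOH and 26.6, 24.3 and 1.37 TPM with antimycin A. As for *atg-9*, antimycin A replicate 3 was below EtOH replicate 1, and *epg-3* did not pass without the block (adjusted p = 0.284, blocked 4.44e-05). The list's count was 1 of 2 (50%, against 14.2% of all genes). It became 0 when antimycin A replicate 2 was left out, and 2 when EtOH replicate 1 or antimycin A replicate 3 was. Of 14 fusion genes 3 rose, and 5 with the block, shares of 21.4% and 35.7% that lie near the 14.2% and 29.6% of all genes: *syx-17*, for the autophagosomal syntaxin, from 25.8 TPM ± 3.90 to 86.0 TPM ± 5.12, *vamp-7* from 23.2 TPM ± 8.27 to 64.3 TPM ± 13.6, and *rab-7* from 91.3 TPM ± 29.8 to 199 TPM ± 32.0. The *rab-7* call was lost without EtOH replicate 2 (adjusted p = 0.0526).

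Of 13 nutrient and energy signalling genes, not all of which code for kinases, 3 rose (23.1%, against 14.2% of all genes). With the block 8 rose (61.5% against 29.6%), and without EtOH replicate 1 7 did. The count was 1 if EtOH replicate 2 or 3, or the first or second antimycin A library, was left out. *aak-1*, for a catalytic subunit of AMP-activated kinase, rose from 35.5 TPM ± 1.69 to 149 TPM ± 14.3 (2.03 ± 0.20 SE, adjusted p = 7.83e-05). *rsks-1*, the S6 kinase gene, and *aakb-1*, for a beta subunit of AMP-activated kinase, rose by log2 fold changes of 1.14 and 0.99; both calls were lost in these same 4 fits (highest adjusted p = 0.131 and 0.197). *let-363*, the TOR kinase gene, which was outside the naming rule and chosen after its values were seen, read 3.12, 1.37 and 1.22 TPM with EtOH and 2.27, 2.01 and 1.27 TPM with antimycin A. Among 9 transcription factor genes linked to autophagy, *atfs-1*, *mxl-2* and *mxl-3* rose by log2 fold changes of 2.201, 1.66 and 1.63. These 3 were 33.3% of the list, against 14.2% of all genes. With the block 7 of the 9 rose (77.8% against 29.6%), and without EtOH replicate 1 6 did.

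**Figure D5:**
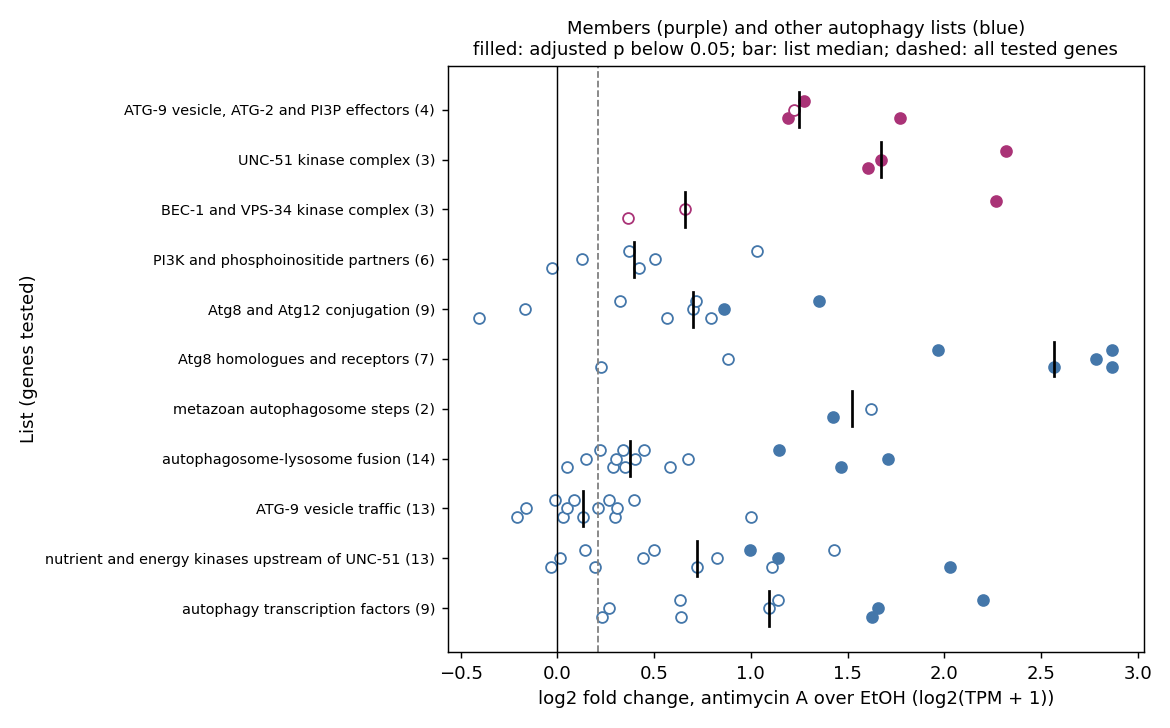
Log2 fold change (antimycin A over EtOH, on log2(TPM + 1)) of each tested gene in the 3 member sets (purple) and the 8 other autophagy lists (blue), with filled symbols for an adjusted p below 0.05, black bars for list medians and a dashed line at the median of all tested genes. The UNC-51 complex is filled throughout, the receptors reach furthest, and no gene of the ATG-9 traffic or PI3K partner lists is filled.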

How the data were processed

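Per the labels' protocols, ribosomes tagged with RPL-22::3xHA were captured with an antibody to HA, the RNA was isolated with an Absolutely RNA Nanoprep kit, and SureSelect XT HS2 mRNA libraries were sequenced. The tools named in the submitters' processing notes are DESeq2 (1.28.1), StringTie (2.1.4), HISAT2, Trimmomatic (0.36) and bcl2fastq (2.20), with build WBcel235. The strand setting and the DESeq2 formula were not given in those notes. The authors deposited, for each gene, TPM with their ratio and log2 of that ratio, plus p-value and q-value columns, in 1 table over all libraries and 1 for each same-numbered pair. In the pair 1 table the deposited log2 ratio is EtOH over antimycin A and its sign was turned. The deposited floor of 1e-04 TPM was set to 0. There were 0 columns of other samples.

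A count test had been planned, and was not run because the files hold TPM. Instead limma 3.58.1 in R 4.3.3, with its trend option, was fitted to log2(TPM + 1) by group. Genes needed 1 TPM in 3 or more libraries (11099 genes), and Benjamini-Hochberg adjustment ran over all of them. The code was tested on simulated data. The design text says that each independent experiment had a control and a trained sample. The authors deposited a table for each same-numbered pair, and the numbers are therefore read as pairs, with the replicate block as an alternative. Same-numbered libraries also deviated together (r = 0.68 for replicate 1, 0.31 for replicate 2 and 0.59 for replicate 3). These r were taken without scaling, and the size factors have the same order in both groups. They therefore cannot tell pairing from that shared order. Other alternatives were scalings, pseudocounts, filters, quality weights, and libraries or pairs left out. Ratios between genes were compared by exact permutation, between groups and within pairs; these comparisons were added after the data were seen. Python 3.11.15, pandas 2.3.3, numpy 2.4.6, scipy 1.17.1 and matplotlib 3.10.9 were used.

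The 10 members, the 8 other autophagy lists and the markers were chosen with earlier results of these data known. The text names all members, up to 3 genes of each list with the smallest p, the 5 genes most like *atg-9*, marker genes and *tbh-1*; *let-363*, *epg-3*, *cla-1* and genes overlapping a member are named besides, chosen after their values were seen.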

Additional observations from a re-analysis of the deposited data

How the results depend on the processing

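The members' log2 fold changes were positive in all 179 gene and alternative combinations computed. The calls of *epg-9* and *bec-1* held in all 18, and *vps-34* passed in 0 of 18 (log2 fold change 0.05 to 0.63; lowest adjusted p 0.0681). *atg-9* passed with the replicate block (1.22) and with quality weights (1.90), and ranged from 0.79 to 1.79 when libraries or pairs were left out. Without a filter, *atg-18* and *epg-6* did not pass (adjusted p = 0.0854 and 0.0819); *atg-2* was not tested at 5 TPM. Both *unc-51* and *atg-13* lost their call without replicate 2 as a whole. Members higher ranged from 2 to 9 over the left-out fits. The counts for the other lists ranged from 9 to 30, and were 35 with the replicate block and 42 with quality weights. Over all genes, 1579 were higher and 718 lower (68.7% higher). Median-of-ratios scaling gave 1394 and 1185 (54.1% higher), quantile normalization 1423 and 1398 (50.4%), the replicate block 3282 and 1442, and quality weights 4094 and 1219. Left-out fits gave 391 to 2059 higher and 162 to 705 lower. The cause of these shifts was not tested, except that left-out fits have fewer samples. The count tests could not be run on TPM. TPM hold no depth, so the precision of low genes such as *atg-2* and *atg-9* cannot be given.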
